A study of Mus musculus with 20 samples.

Results

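The 10 genes of the MYC, MAX and MXD network were followed in 15 mouse liver tumors that carried a MYC transgene and in 5 control livers. They were chosen by symbol, 10 of the 50559 genes in each of the deposited count tables, and comprise the MYC family (Myc, Mycn and Mycl), its partner Max, the MXD family (Mxd1, Mxd3, Mxd4 and Mxi1), Mnt and Mlx. Against livers, Max, Mxd3, Mxi1 and Mnt were higher and Mycl and Mxd4 lower, both in Aldafermin + MYC with FGF19 + MYC tumors and in sgTrp53 + MYC tumors. Mouse Myc itself was lower than in livers in both, a call that did not hold under every scaling. Aldafermin + MYC and FGF19 + MYC tumors did not differ in any member past the threshold. Relative to sgTrp53 + MYC tumors, these tumors had less Mxi1, Mxd4 and Mxd1, although the call of Mxd1 was lost in 11 of 32 alternatives and that of Mxd4 in 2.

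MYC proteins bind DNA and activate genes only as heterodimers with MAX, on E-boxes whose core sequence is CACGTG. MXD proteins and MNT compete for MAX and repress the same sites through SIN3 and histone deacetylases. The levels of the MXD proteins usually rise as cells leave the cell cycle, with MXD3 as the member linked to S phase. MLX is a related partner that pairs with MXD1, MXD4, MNT and the glucose-sensing factors MLXIP (MondoA) and MLXIPL (ChREBP), the latter a driver of glycolytic and lipogenic genes in hepatocytes. In quiescent adult liver Myc is low, and L-Myc, encoded by Mycl, is a family member with weaker transforming activity than MYC.

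All animals were female wild-type C57BL/6J mice. Tumors arose after hydrodynamic gene transfer, in which plasmids pushed into the tail vein reach a subset of hepatocytes. All 3 tumor groups received MYC under the EF1a promoter and the SB100X transposase, together with human FGF19, with Aldafermin (an FGF19 analog with changes at its N-terminus) or with a Cas9 plasmid that carries a guide against Trp53. The study's text states that the sequenced tumors were from independent animals, and the sources used here do not say so of the livers. The livers are described as transfected with an RFP plasmid in the study's text and as non treated in the labels. The titles of the sgTrp53 + MYC samples give their condition, while their treatment field reads none.

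Each group held 5 libraries, and p-values measure the spread between these samples. Between 18004977 and 44427184 reads fell on genes in the libraries of Aldafermin + MYC tumors, FGF19 + MYC tumors and livers. The sgTrp53 + MYC libraries held 54042455 to 66354724 and stood alone in a second table, in which 11.1% to 14.6% of reads were ambiguous between genes against 3.03% to 6.3% in the first. A difference between the tables and a difference between sgTrp53 + MYC tumors and the other groups cannot be told apart. Trp53 ranged from 18.7 to 79.9 CPM (reads on the gene scaled to a common library size, adjusted by the trimmed mean of M-values, TMM) in sgTrp53 + MYC tumors and from 90.8 to 176 CPM in the other tumors, without overlap, and from 28.8 to 36.4 CPM in livers. The summed level of 8 hepatocyte markers was 4209 to 29676 CPM in tumors and 184176 to 227781 CPM in livers, and none of the 8 was at 0 in any group. In bulk tissue, fewer cells of a type and less RNA per cell cannot be told apart.

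The E-box CACGTG, which reads the same on both strands, occurred in the promoters of 4 of the 9 members present in the RefSeq promoter table (GRCm38.p6, 250 bases before to 50 bases after the start), namely Max, Mxd4, Mnt and Mlx. It occurred in 7.15% of all 32851 promoters of that table, and in at least 1 promoter of 8.09% of its 27025 genes. The 30-base windows below show each site in its promoter, 5′ to 3′ on the strand of the gene, with the E-box in capitals. They are chr12:76962234-76962263 on the minus strand for Max, chr5:34187912-34187941 on the minus strand for Mxd4, chr11:74830789-74830818 on the plus strand for Mnt and chr11:101087238-101087267 on the plus strand for Mlx.
Max: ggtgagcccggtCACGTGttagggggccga
Mxd4: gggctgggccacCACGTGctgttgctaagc
Mnt: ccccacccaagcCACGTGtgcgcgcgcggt
Mlx: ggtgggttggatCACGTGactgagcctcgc
The first base of the site lay 3 bases before the start in Max, 40 in Mlx, 123 in Mnt and 219 in Mxd4. Among 25 genes listed as activated by MYC, 20 were in the table and 5 of these held the site, among them Cdk4, which drives entry into the cell cycle, with 4 copies, and Ldha, which makes lactate from pyruvate. Of the latter, the copies nearest to the start are shown for comparison, at chr10:127063512-127063541 and chr7:46845744-46845773, both on the plus strand.
Cdk4: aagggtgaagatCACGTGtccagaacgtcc
Ldha: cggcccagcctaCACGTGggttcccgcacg
No match was found for Mycn, Mycl, Mxd1, Mxd3 and any of the 3 promoters of Mxi1, which says only that these letters were not in the windows searched. The 4 members with the site did not move one way against livers, since Max and Mnt were higher and Mxd4 lower in tumors, and Mlx was lower or higher depending on the scaling of the libraries.

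Mouse Myc (chr15:61857227-61862223 in GRCm39, plus strand) is the endogenous counterpart of the injected MYC. It gave 1.35, 2.45, 2.56, 4.23 and 7.42 CPM in the Aldafermin + MYC tumors and 1.51, 3.73, 4.08, 5.58 and 6.78 CPM in the FGF19 + MYC tumors. The sgTrp53 + MYC tumors gave 2.55, 2.67, 2.86, 2.94 and 4.3 CPM, and livers 5.24, 6.41, 6.67, 7.51 and 11.4 CPM. All sgTrp53 + MYC libraries lay below all livers, whereas the highest Aldafermin + MYC and FGF19 + MYC tumors overlapped with the livers. The difference from livers was a log2 fold change of -0.91 (SE 0.34) for Aldafermin + MYC and FGF19 + MYC tumors (edgeR, adjusted p = 0.0204) and of -1.28 (SE 0.40) for sgTrp53 + MYC tumors (edgeR, adjusted p = 0.00857). Without liver replicate 4, the highest liver, the former became -0.71 (edgeR, adjusted p = 0.0862), and over its 32 alternatives the adjusted p ranged from 0.00243 to 0.938. With libraries scaled by their totals alone, without TMM, which moved the median of all genes to 0.94 and 0.95 in these comparisons, Myc stood at -0.03 and -0.38 and passed in neither. Whether transcripts of the injected MYC were counted on the mouse gene was not tested, and the species of its coding sequence is not given in the sources used here.

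The level of Myc correlated within the groups with markers of several non-hepatocyte cell types. Over the 20 libraries, after each group's mean log2 CPM was subtracted, the 5 genes of 9393 with the highest Pearson correlation with Myc were Lrrc32 (0.921), Emilin1 (0.898), Pdgfrb (0.895), Pecam1 (0.881) and Pld4 (0.875). Pecam1 is an endothelial adhesion molecule, Pdgfrb a receptor of pericytes and stellate cells, Emilin1 a glycoprotein of elastic fibers, Lrrc32 the cell-surface anchor of latent TGF-beta and Pld4 an exonuclease of myeloid and dendritic cells. These points share their libraries and the composition of each piece of tissue, and the correlations are given as a description.

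**Figure D1:**
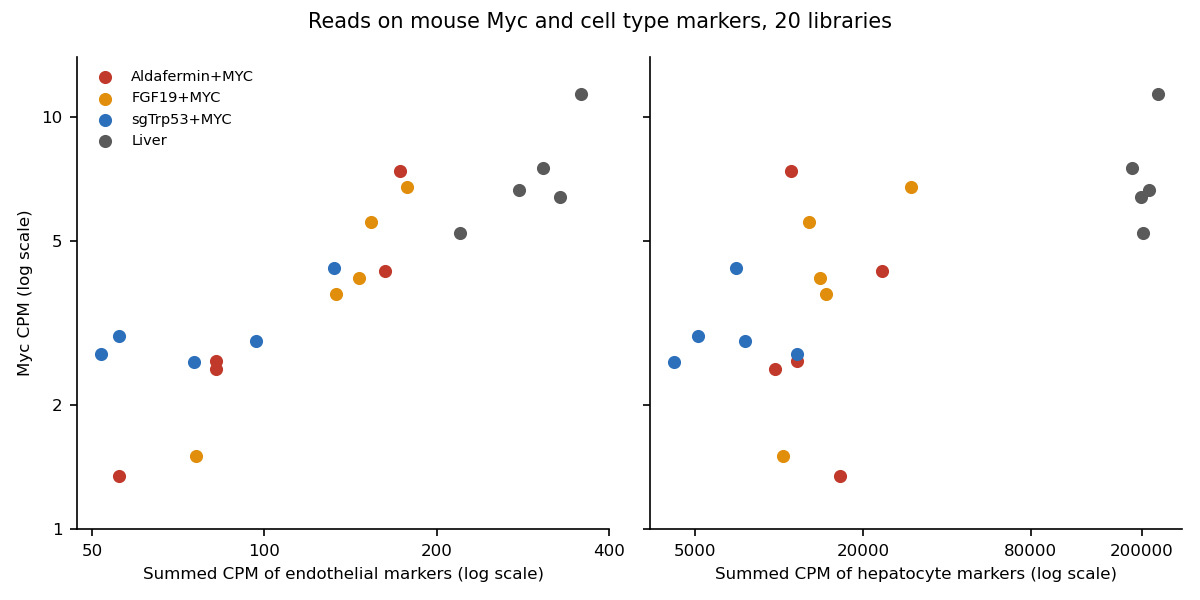
Myc CPM in each of the 20 libraries (vertical axis, log scale) against the summed CPM of 6 endothelial markers (left) and of 8 hepatocyte markers (right), both on log scales, with 1 point per library colored by group. After each group's mean was subtracted, Myc correlated with the endothelial sum at r = 0.867 and with the hepatocyte sum at r = 0.277. The points are plotted without this subtraction, and the livers have the highest sums of both lists.

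The summed level of 6 endothelial markers correlated with Myc at r = 0.867 within groups, that of 6 stellate cell and fibroblast markers at 0.824 and that of 6 macrophage markers at 0.819, compared with 0.277 for hepatocyte markers and -0.0394 for proliferation genes (20 libraries each). The endothelial sum ranged from 51.9 to 178 CPM in tumors and from 220 to 357 CPM in livers, and no marker of the list was at 0 in any group. Among the other members, the correlation with the endothelial sum lay between -0.448 for Mlx and 0.526 for Mycl. The part of these cells in the reads on Myc was not tested.

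Mycl (chr4:122889408-122896282, plus strand) had the largest difference of the members between tumors and livers. Livers gave 33.9, 35.4, 36.2, 36.5 and 53.9 CPM. Aldafermin + MYC tumors gave 0.447, 0.477, 1.07, 1.72 and 4.04 CPM, FGF19 + MYC tumors 1.12, 1.35, 1.53, 1.88 and 7.84 CPM, and sgTrp53 + MYC tumors 0.353, 0.531, 0.966, 1.09 and 1.64 CPM. All 15 tumors lay below all livers. Mycl was 19.1-fold lower in Aldafermin + MYC and FGF19 + MYC tumors (log2 fold change -4.25, SE 0.49, edgeR adjusted p = 2.3e-07) and 42.6-fold lower in sgTrp53 + MYC tumors (-5.41, SE 0.69, edgeR adjusted p = 9.1e-07). The tumors with the most Mycl in 2 of the groups, Aldafermin + MYC replicate 4 and FGF19 + MYC replicate 5, also had the highest hepatocyte marker sums among all tumors, 23392 and 29676 CPM. In sgTrp53 + MYC tumors the most Mycl was in replicate 3, with a sum of 7009 CPM. The highest sum of that group, 11581 CPM, was in replicate 1, with 1.09 CPM of Mycl. Within groups, Mycl correlated with the hepatocyte sum at r = 0.623 (20 libraries, as a description). All 8 hepatocyte markers were lower in both comparisons with livers, where 34.5% and 33% of all genes were lower. Their medians were -2.81 and -3.38 on the log2 scale, and their part in the difference of Mycl was not tested.

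Mycn (chr12:12986076-12992915, minus strand), which is active in embryonic and neural tissue, had 30 reads or fewer in every library and was the 1 member of 10 that failed the filter of 1 CPM in at least 5 libraries. It had 3 to 14 reads in Aldafermin + MYC tumors, 0 to 12 in FGF19 + MYC tumors and 4 to 26 in sgTrp53 + MYC tumors, the latter at 0.056 to 0.3 CPM. Livers had 8 to 30 reads, at 0.353, 0.403, 0.478, 0.646 and 2.05 CPM. All sgTrp53 + MYC tumors lay below all livers, and only Aldafermin + MYC replicate 3 and FGF19 + MYC replicate 5 reached the range of the livers. With no filter, the log2 fold change of Aldafermin + MYC and FGF19 + MYC tumors against livers was -1.95 (SE 0.65, edgeR adjusted p = 0.0169), and that of sgTrp53 + MYC tumors was -1.87 (SE 0.77, edgeR adjusted p = 0.0561). With edgeR's own filter they were -2.07 (SE 0.64, adjusted p = 0.00718) and -2.10 (SE 0.75, adjusted p = 0.0187).

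Max (chr12:76984043-77009009, minus strand), the obligate partner of MYC, MXD and MNT proteins, was higher in all 15 tumors than in all livers. Livers gave 27.8, 29.0, 29.1, 31.4 and 34.1 CPM. Aldafermin + MYC tumors gave 54.1, 66.0, 66.4, 66.8 and 77.7 CPM, FGF19 + MYC tumors 56.1, 79.5, 79.6, 80.5 and 83.4 CPM, and sgTrp53 + MYC tumors 68.1, 70.6, 74.2, 79.5 and 90.1 CPM. The lowest tumor was thus well above the highest liver. The difference was 2.34-fold in Aldafermin + MYC and FGF19 + MYC tumors (log2 fold change 1.23, SE 0.11, edgeR adjusted p = 9.7e-09) and 2.53-fold in sgTrp53 + MYC tumors (1.34, SE 0.13, edgeR adjusted p = 1.7e-08). No exon base of Max is shared with another annotated gene.

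**Figure D2:**
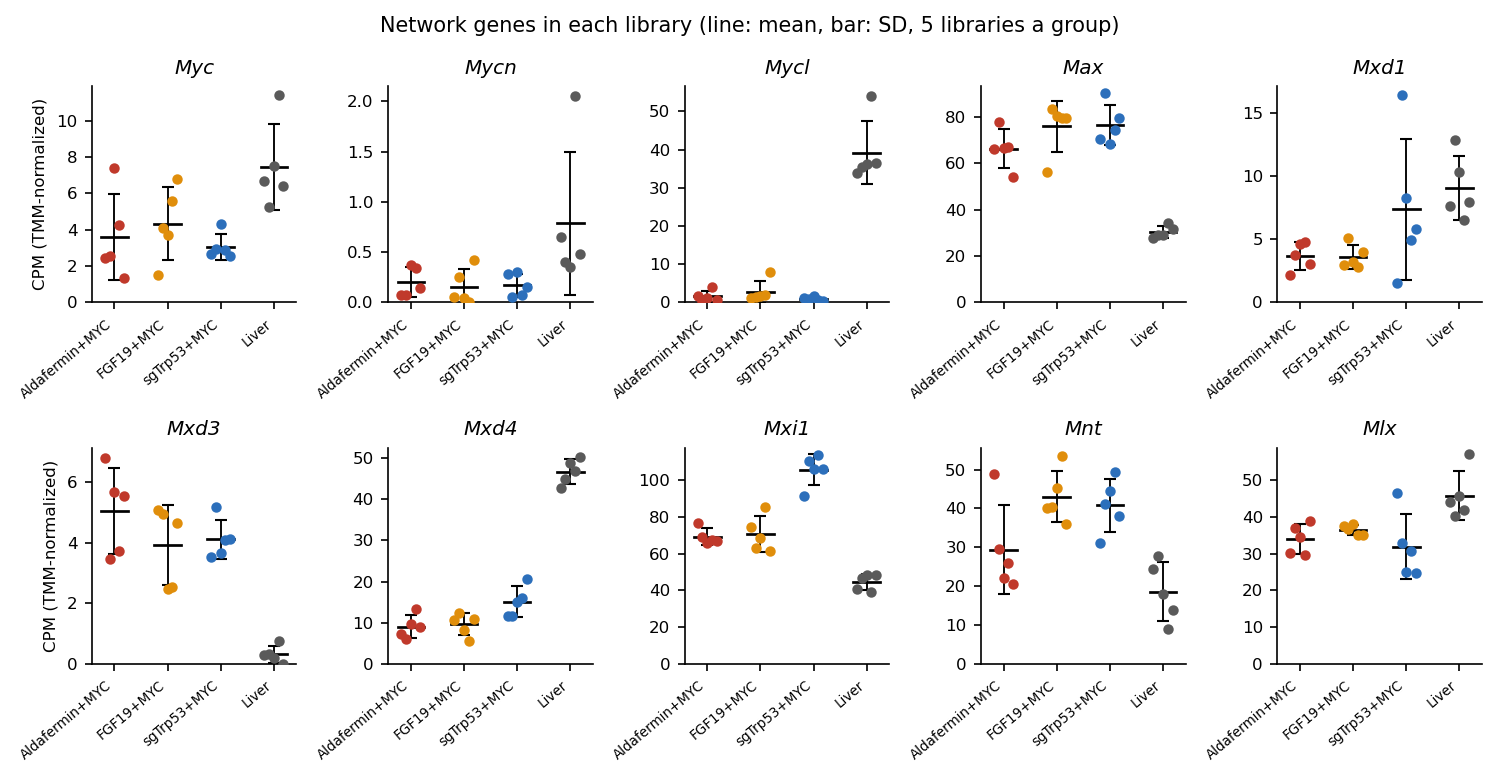
CPM of the 10 members (1 panel each, linear vertical axis from 0) in each library of the 4 groups on the horizontal axis. Points are libraries, lines are means and bars are SD (n = 5). Max and Mxi1 lie above all livers in every tumor, Mycl and Mxd4 below all livers, and Mxd3 is near 0 in livers.

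The MXD genes split into members above and members below the livers. Mxd3 (chr13:55472981-55477908, minus strand) gave 0, 0.177, 0.287, 0.33 and 0.751 CPM in livers, on 0 to 11 reads, and between 2.47 and 6.8 CPM in the 15 tumors, on 55 to 370 reads. The tumor and liver levels did not overlap. The log2 fold change was 3.92 (SE 0.50) in Aldafermin + MYC and FGF19 + MYC tumors (edgeR, adjusted p = 8.6e-07) and 3.80 (SE 0.53) in sgTrp53 + MYC tumors (edgeR, adjusted p = 2.8e-06). Of its exon bases, 31.7% lie opposite exons of Prelid1, a mitochondrial lipid transfer gene with 152 to 216 CPM in livers. Prelid1 was higher in tumors than in livers by 0.70 on the log2 scale in both comparisons. The part of this overlap in the reads on Mxd3 was not tested. All 8 proliferation genes were also higher in both comparisons, where 39.2% and 36.9% of all genes were higher. Their medians were 6.01 and 6.37 on the log2 scale, and their part in the difference of Mxd3 was not tested.

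Mxd4 (chr5:34331227-34345240, minus strand), a repressor of resting and differentiated cells, behaved in the opposite way. Livers gave 42.7, 44.9, 47.0, 48.9 and 50.4 CPM. Aldafermin + MYC tumors gave 5.95, 7.19, 8.92, 9.77 and 13.3 CPM, FGF19 + MYC tumors 5.61, 8.26, 10.7, 10.9 and 12.4 CPM, and sgTrp53 + MYC tumors 11.5, 11.7, 15.1, 16.1 and 20.7 CPM. Every tumor was below every liver. Mxd4 was 5.03-fold lower in Aldafermin + MYC and FGF19 + MYC tumors (log2 fold change -2.33, SE 0.19, edgeR adjusted p = 1.0e-09) and 3.11-fold lower in sgTrp53 + MYC tumors (-1.64, SE 0.23, edgeR adjusted p = 3.0e-06).

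Mxi1 (chr19:53298852-53364241, plus strand), also known as MXD2, had the highest mean level per length of the MXD genes in every group. Livers gave 39.1, 40.8, 47.0, 48.3 and 48.5 CPM, and the other levels were 65.8 to 77.0 CPM in Aldafermin + MYC tumors, 61.6 to 85.6 CPM in FGF19 + MYC tumors and 91.7, 106, 107, 110 and 114 CPM in sgTrp53 + MYC tumors. The 3 ranges, livers, Aldafermin + MYC with FGF19 + MYC, and sgTrp53 + MYC, did not overlap. The log2 fold change against livers was 0.65 (SE 0.10, edgeR adjusted p = 5.8e-06) in the former tumors and 1.24 (SE 0.11, edgeR adjusted p = 6.3e-09) in the latter.

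Mxd1 (chr6:86624024-86646218, minus strand), classically induced during terminal differentiation, gave 6.56, 7.6, 7.97, 10.3 and 12.9 CPM in livers. It gave 2.14, 3.0, 3.77, 4.62 and 4.77 CPM in Aldafermin + MYC tumors and 2.76, 2.96, 3.23, 3.97 and 5.13 CPM in FGF19 + MYC tumors, all below all livers. In sgTrp53 + MYC tumors it gave 1.55, 4.93, 5.77, 8.27 and 16.4 CPM, and spanned the range of the livers. The log2 fold change against livers was -1.32 (SE 0.35, edgeR adjusted p = 0.00206) in Aldafermin + MYC and FGF19 + MYC tumors and -0.30 (95% interval -1.16 to 0.56, edgeR adjusted p = 0.534) in sgTrp53 + MYC tumors. With libraries scaled by their totals alone these values were -0.46, no longer past the threshold, and 0.62.

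Mnt (chr11:74721338-74736836, plus strand), a broadly expressed repressor that limits MYC activity, gave 9.01, 13.9, 18.1, 24.4 and 27.7 CPM in livers. It gave 20.4, 22.2, 26.0, 29.5 and 48.9 CPM in Aldafermin + MYC tumors, 36.1, 40.1, 40.5, 45.2 and 53.5 CPM in FGF19 + MYC tumors and 31.1, 38.0, 41.2, 44.4 and 49.3 CPM in sgTrp53 + MYC tumors. FGF19 + MYC and sgTrp53 + MYC tumors lay above all livers, and Aldafermin + MYC tumors overlapped with them. The log2 fold change was 0.93 (SE 0.24) in Aldafermin + MYC and FGF19 + MYC tumors (edgeR, adjusted p = 0.00151) and 1.13 (SE 0.26) in sgTrp53 + MYC tumors (edgeR, adjusted p = 8.4e-04).

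Mlx (chr11:100978080-100983043, plus strand) gave 40.3, 41.8, 43.9, 45.5 and 57.1 CPM in livers. Its level was 29.5 to 38.9 CPM in Aldafermin + MYC tumors and 35.0 to 38.1 CPM in FGF19 + MYC tumors, below all livers, and 24.7, 24.9, 30.6, 32.9 and 46.5 CPM in sgTrp53 + MYC tumors. The log2 fold change was -0.38 (SE 0.13, edgeR adjusted p = 0.0139) and -0.52 (SE 0.15, edgeR adjusted p = 0.00536), but it turned to 0.46 and 0.34 with library totals alone, where the median of all genes stood near 0.94. Without liver replicate 5, the former value became -0.29 (edgeR, adjusted p = 0.0703), and over the 32 alternatives its adjusted p ranged from 9.0e-04 to 0.287. Of its exon bases, 51.9% lie opposite exons of Psmc3ip, a meiotic recombination gene, which had 0.205 to 0.438 CPM in livers and 5.61 to 11.0 CPM in tumors. The strand setting of the counting is not given in the sources used here, and without strand the reads of such a pair cannot be told apart. The share of ambiguous reads was 11.1% to 14.6% in sgTrp53 + MYC libraries and 3.03% to 6.3% in the others. Its bearing on the differences of Mlx and Mxd3 from sgTrp53 + MYC tumors was not tested.

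In all, 9 of the 10 members were tested, and 4 were higher and 5 lower in Aldafermin + MYC and FGF19 + MYC tumors than in livers, where 73.7% of all 14333 genes tested passed. In sgTrp53 + MYC tumors, 4 were higher, 4 lower and 1 (Mxd1) did not pass, against 69.9% of all genes. The levels of 7 members did not overlap between the groups in each comparison, against 54.2% and 56.2% of all genes. The median log2 fold change of the members was -0.38 and -0.30, and that of all genes tested 0.10 and 0.07. With library totals alone, 5 members were higher and 2 lower in each comparison, among them Mlx as higher.

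**Figure D3:**
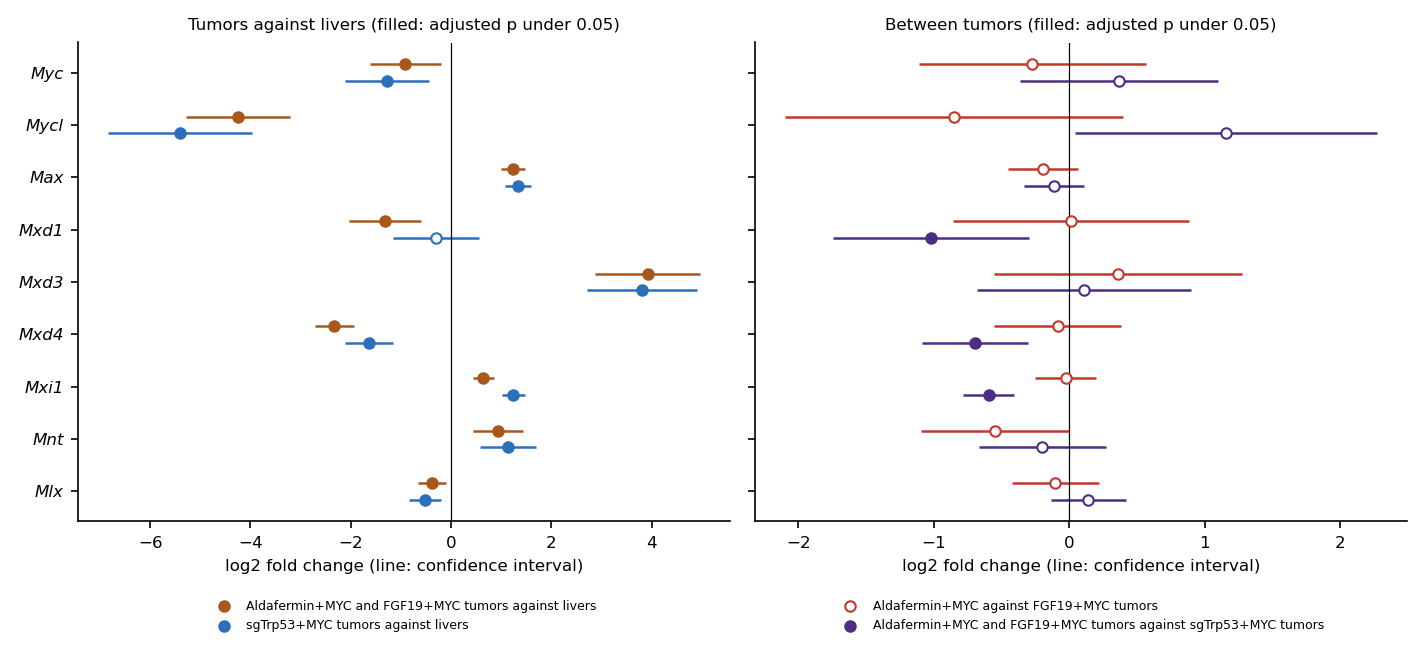
log2 fold changes (horizontal axis) of the 9 tested members with their 95% intervals, for tumors against livers (left) and between tumors (right), on different scales. Filled points passed an adjusted p of 0.05 (edgeR). Against livers, Mycl lies at -4.25 and -5.41 and Mxd3 at 3.92 and 3.80. The values of Mlx, -0.38 and -0.52, turn to 0.46 and 0.34 with library totals alone. Between tumors, the filled points are Mxd1, Mxd4 and Mxi1.

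The network genes were set beside each other per kb of exon. Livers were led by Mlx at 21.4 ± 3.12 CPM per kb (SD, n = 5), followed by Mycl at 9.31 ± 1.98, Max at 7.03 ± 0.588, Mxi1 at 6.17 ± 0.614 and Mxd4 at 5.4 ± 0.354, and the ranges of Max and Mxi1 and of Mxi1 and Mxd4 overlapped. Max led in sgTrp53 + MYC tumors, at 17.8 ± 2.03 CPM per kb (SD, n = 5), and its range overlapped with that of Mlx at 14.9 ± 4.17, which in turn overlapped with Mxi1 at 14.6 ± 1.17. In Aldafermin + MYC and FGF19 + MYC tumors Max and Mlx were likewise the leading pair with overlapping ranges, and both stood clear of Mxi1. Mycl, at rank 2 of the 10 genes in livers, was at rank 9 in Aldafermin + MYC and sgTrp53 + MYC tumors and at rank 8 in FGF19 + MYC tumors. Mycn had the lowest level in each tumor group, and Mxd3 in livers, where its range overlapped with that of Mycn.

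The summed level of the 10 genes was 51.5 ± 2.69 CPM per kb (SD, n = 5) in Aldafermin + MYC, 57.8 ± 3.11 in FGF19 + MYC and 60.6 ± 3.72 in sgTrp53 + MYC tumors, and 57.1 ± 3.01 in livers. Its make-up differed between tumors and livers. The MYC family made up 21.4% ± 4.76 of the sum in livers (SD, n = 5) and 3.37% ± 2.05, 3.89% ± 2.28 and 2.29% ± 0.729 in Aldafermin + MYC, FGF19 + MYC and sgTrp53 + MYC tumors. The highest tumor, at 7.64%, was below the lowest liver, at 18.1%. Max made up 12.3% ± 0.697 in livers (SD, n = 5) and 29.8% ± 2.76, 30.4% ± 3.32 and 29.3% ± 2.38 in the tumors in the same order. The MXD family and Mnt together made up 28.9% ± 4.16 in livers (SD, n = 5) and 35.8% ± 4.32, 36.1% ± 3.35 and 43.8% ± 5.23 in tumors, where Aldafermin + MYC and FGF19 + MYC tumors overlapped with livers and sgTrp53 + MYC tumors did not. Set against Max in the same library, their summed level per length was 2.36 ± 0.408 times that of Max in livers (SD, n = 5), and 1.21 ± 0.214, 1.21 ± 0.258 and 1.5 ± 0.191 times in the tumors. The highest tumor and the lowest liver ratio were both 1.72 after rounding, the liver being just above the tumor. These shares count RNA of the mouse genes and leave out any RNA of the injected MYC that was not counted on them.

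**Figure D4:**
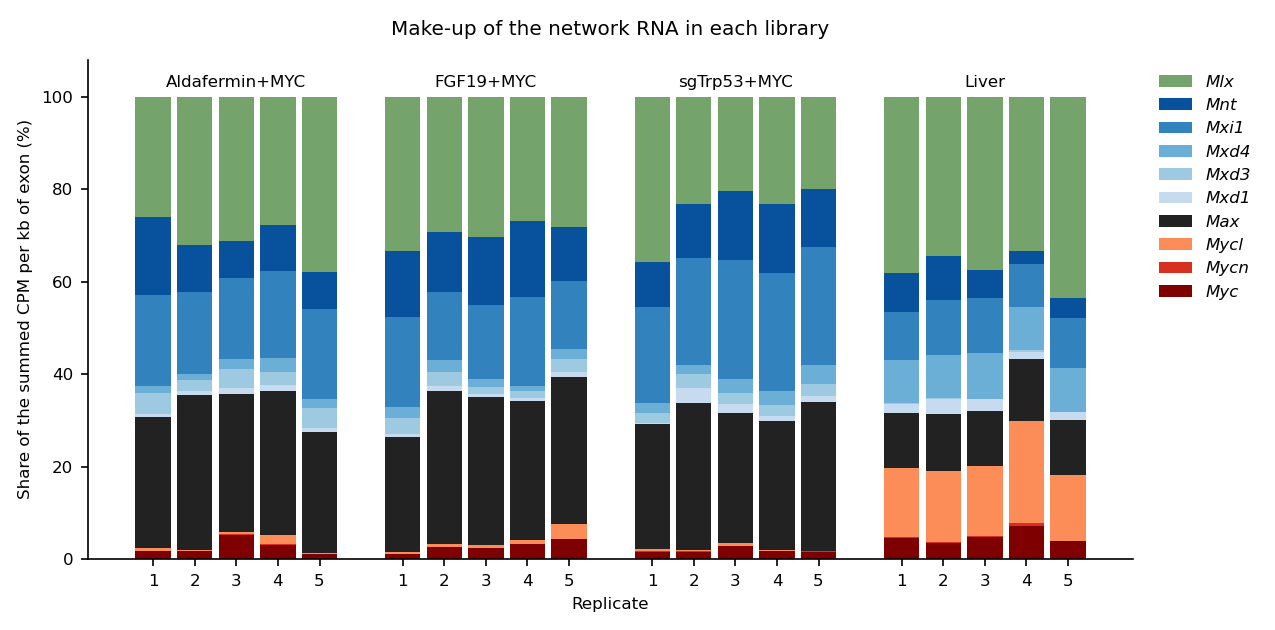
Share of each member in the summed CPM per kb of exon of the 10 genes (vertical axis, percent), with 1 bar per library, by replicate and group. Livers show a Mycl share of 14.1% to 21.9% and a Max share near 12.3%, and tumors a Max share of 24.7% to 33.5%.

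Aldafermin and FGF19 differ by changes at the N-terminus, and the comparison asks whether tumors driven by each with MYC differ. None of the 9 tested members passed in edgeR's quasi-likelihood test, against 0% of all genes, and 1 member, like 1048 of all 14333 genes, had an unadjusted p under 0.05. DESeq2 and edgeR's likelihood ratio test also called no member, while calling 96 and 59 genes of all. The levels of no member were free of overlap between these groups, against 1.46% of all genes. That member was Mnt, at a log2 fold change of -0.55 (95% interval -1.10 to -0.0027, edgeR adjusted p = 0.676), with Aldafermin + MYC replicate 1 inside the range of the FGF19 + MYC tumors and the other Aldafermin + MYC tumors below it. The 95% intervals of the difference were narrowest for Mxi1, from -0.25 to 0.20, Max, from -0.45 to 0.06, and Mlx, from -0.42 to 0.22, and widest for Mycl, from -2.10 to 0.39. For Myc the log2 fold change was -0.27 (95% interval -1.11 to 0.56), and for Mxd1, Mxd3 and Mxd4 it was 0.02, 0.36 and -0.08.

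Against sgTrp53 + MYC tumors, 3 of the 9 tested members were lower in Aldafermin + MYC and FGF19 + MYC tumors and none was higher, where 23.7% of all genes passed, 12.1% as lower and 11.6% as higher. All 3 belong to the MXD family. Mxi1 was 1.51-fold lower (log2 fold change -0.60, SE 0.09, edgeR adjusted p = 1.7e-04) and was the 1 member whose levels did not overlap, as was the case for 5.7% of all genes. Mxd4 was 1.62-fold lower (-0.69, SE 0.19, edgeR adjusted p = 0.0122), with the lower sgTrp53 + MYC tumors inside the range of the others. For Mxd1 the log2 fold change was -1.02 (SE 0.35, edgeR adjusted p = 0.0383). Without sgTrp53 + MYC replicate 2, at 16.4 CPM, it was -0.50 (edgeR, adjusted p = 0.281). This library also had a summed level of 5 cholangiocyte markers of 779 CPM, where the other sgTrp53 + MYC tumors had 3.44 to 41.2 CPM and the other tumors 1.81 to 87.6 CPM. The part of these cells in the level of Mxd1 was not tested. The difference in Mxd1 also missed the threshold without Aldafermin + MYC replicate 1 or 2, FGF19 + MYC replicate 1, 3 or 4 or sgTrp53 + MYC replicate 3, at values of -1.03 to -0.951, and over its 32 alternatives the adjusted p ranged from 0.00317 to 0.281. Without sgTrp53 + MYC replicate 5, Mxd4 became -0.55 (edgeR, adjusted p = 0.0568; 0.0025 to 0.0568 over its 32 alternatives), and with FGF19 + MYC tumors alone only Mxi1 passed. The other differences were 0.37 (95% interval -0.36 to 1.10) for Myc, 1.16 (0.04 to 2.28, edgeR adjusted p = 0.123) for Mycl, -0.11 (-0.33 to 0.11) for Max, 0.11 (-0.68 to 0.90) for Mxd3, -0.20 (-0.67 to 0.27) for Mnt and 0.14 (-0.14 to 0.42) for Mlx. Without sgTrp53 + MYC replicate 1, the highest of its group for Mlx at 46.5 CPM, the difference in Mlx became 0.32 (edgeR, adjusted p = 0.0443). Between these tumors, hepatocyte markers were higher in 4 and lower in 1 of 8 in Aldafermin + MYC and FGF19 + MYC tumors, and macrophage markers higher in 4 of 6, with summed levels of 151 to 514 CPM against 95.0 to 153 CPM in sgTrp53 + MYC tumors. Of 5 cholangiocyte markers, 4 were lower in Aldafermin + MYC and FGF19 + MYC tumors, with a median of -3.00 on the log2 scale. The sgTrp53 + MYC side of that list includes replicate 2, at 779 CPM. Within groups, Mxi1 correlated with the hepatocyte sum at -0.551 and with the macrophage sum at -0.48 (20 libraries, as a description). The same values were 0.169 and 0.331 for Mxd4, and -0.247 and 0.01 for Mxd1. The part of these cells in the differences of the 3 members was not tested.

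The other partners of MAX and MLX moved apart from each other. Mlxipl, which encodes the glucose-responsive factor ChREBP, gave 343 to 589 CPM in livers and 61.1 to 183 CPM in the tumors, with a log2 fold change of -2.04 (SE 0.19, edgeR adjusted p = 1.4e-08) in Aldafermin + MYC and FGF19 + MYC tumors and of -1.65 (SE 0.24, edgeR adjusted p = 5.0e-06) in sgTrp53 + MYC tumors. Its paralog Mlxip, which encodes MondoA, was higher, at 17.5 to 64.4 CPM in tumors against 11.5 to 17.7 CPM in livers and log2 fold changes of 1.54 (SE 0.26) and 1.75 (SE 0.29), with adjusted p of 2.5e-05 and 2.0e-05 in edgeR. Mga, a MAX partner of a repressive Polycomb complex, was higher by 0.48 (SE 0.16, edgeR adjusted p = 0.0111) and 0.83 (SE 0.18, edgeR adjusted p = 5.3e-04). Of 8 target genes of the MLX partners, all were lower in Aldafermin + MYC and FGF19 + MYC tumors than in livers, with a median of -1.87, and 6 were lower in sgTrp53 + MYC tumors, with a median of -1.52, where 34.5% and 33% of all genes were lower. They included Thrsp, a regulator of lipogenesis (-5.82 and -3.20), Fgf21, a hepatic hormone (-4.07 and -3.82), and Pklr, the liver pyruvate kinase (-2.81 and -2.93). Fgf21 was low in all groups, at 0 to 1.07 CPM in tumors and 1.67 to 12.2 CPM in livers. Arrdc4 (-0.46) and Gpd1 (-0.15) did not pass in sgTrp53 + MYC tumors. Between the tumors none of the 3 partners passed, and of the 8 targets Thrsp (-2.63) and Khk, the fructose kinase (-0.98), were lower in Aldafermin + MYC and FGF19 + MYC tumors. Of all genes, 23.7% passed in that comparison, and 12.1% of all were lower.

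Of 25 genes known to be activated by MYC, 22 were higher and none lower in Aldafermin + MYC and FGF19 + MYC tumors than in livers, at a median of 2.68 on the log2 scale, where 39.2% of all genes were higher. In sgTrp53 + MYC tumors 21 were higher and 1 lower, with a median of 2.65, where 36.9% of all genes were higher. The largest differences were those of Mcm5, a subunit of the replicative helicase (5.25 and 5.01), Cad, which starts pyrimidine synthesis (4.65 and 4.43), and Srm, the spermidine synthase (4.53 and 4.05). Ccnd2 passed in neither comparison (-0.54 and 0.10), nor did Shmt2 (0.40 and -0.07). Ldha (0.37) did not pass in sgTrp53 + MYC tumors, and Shmt1, the cytosolic serine hydroxymethyltransferase, was lower (-0.61). Between the tumors, 6 of the 25 were higher in Aldafermin + MYC and FGF19 + MYC than in sgTrp53 + MYC tumors and none lower, led by Ldha (0.69), the ribosome biogenesis factor Bop1 (0.54) and Srm (0.48), where 11.6% of all genes were higher.

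Genes known to be repressed by MYC did not move one way. Of 7 tested of 8, 2 were higher and 3 lower in Aldafermin + MYC and FGF19 + MYC tumors than in livers, with a median of -0.26, where 39.2% of all genes were higher and 34.5% lower. In sgTrp53 + MYC tumors 3 were higher and 3 lower, with a median of -0.51, where 36.9% and 33% of all genes were higher and lower. These counts were near the shares over all genes. The CDK inhibitor Cdkn1a, which is also a p53 target, was higher in both (4.25 and 1.96), and Gadd45g, a stress-response gene (-3.11 and -3.89), and Ndrg2 (-2.56 and -1.96) were lower. Between the tumors Cdkn1a was 2.29 higher on the log2 scale in Aldafermin + MYC and FGF19 + MYC tumors, and Ndrg2 was lower (-0.60). No other gene of the 7 passed there, where 11.6% of all genes were higher and 12.1% lower.

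**Figure D5:**
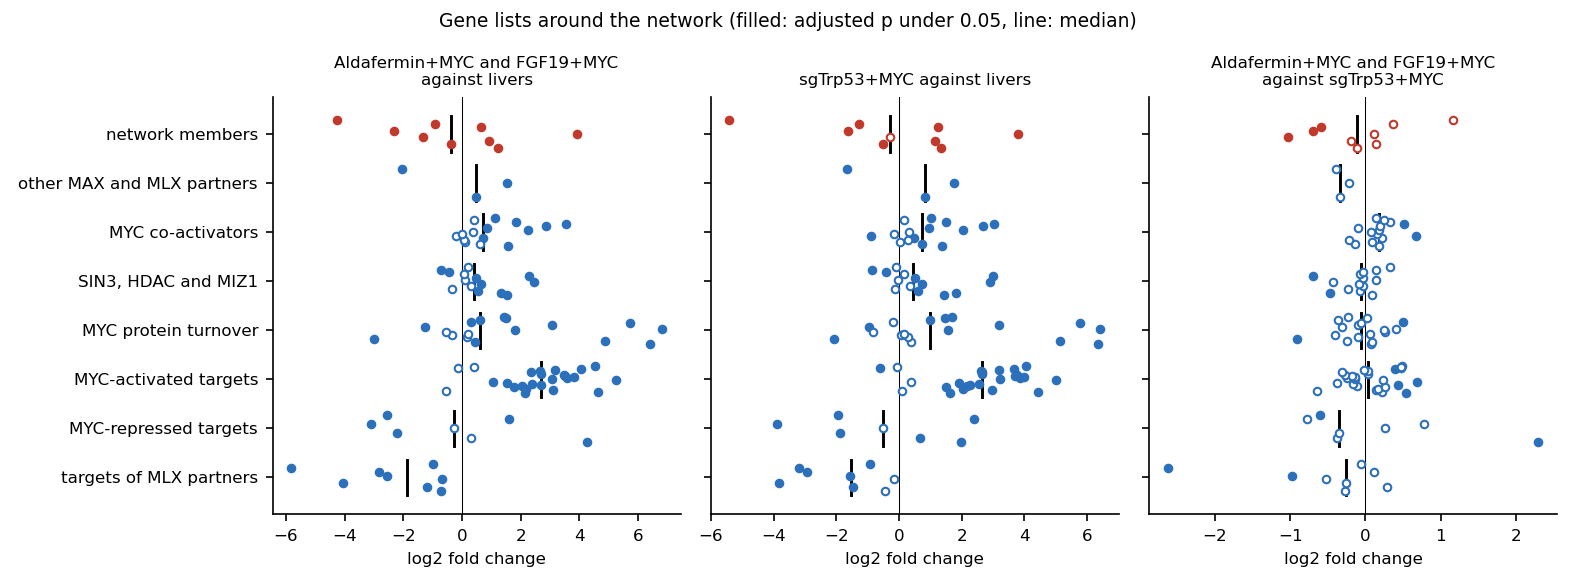
log2 fold changes (horizontal axis) of single genes by list (vertical axis) in 3 comparisons, with medians as vertical lines and filled points for an adjusted p under 0.05 (edgeR). MYC-activated targets have medians of 2.68 and 2.65 against livers and targets of the MLX partners of -1.87 and -1.52, while the network members spread to both sides.

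The co-factors through which the network acts are set against shares over all genes of 39.2% higher and 34.5% lower in Aldafermin + MYC and FGF19 + MYC tumors and of 36.9% and 33% in sgTrp53 + MYC tumors. Of 15 MYC co-activators, 8 were higher and none lower in Aldafermin + MYC and FGF19 + MYC tumors than in livers, with a median of 0.71, led by the ATPases Ruvbl2 (3.54) and Ruvbl1 (2.85) and the acetyltransferase Kat2a (2.24). In sgTrp53 + MYC tumors 9 were higher, with a median of 0.74, and the acetyltransferase Crebbp was lower (-0.88). A list of 14 genes held those of SIN3 and histone deacetylase complexes, the MXD and MNT side, together with MIZ1. Of these 14, 7 were higher and 2 lower in each comparison with livers, with medians of 0.40 and 0.43. Rbbp7 (2.47 and 2.89) and Sap30 (2.29 and 2.98) led those that were higher, while Suds3 (-0.72 and -0.86) and Sin3b (-0.44 and -0.41), which encodes a SIN3 scaffold, were lower. Between the tumors Sap30 (-0.70) and Hdac2 (-0.48) were lower in Aldafermin + MYC and FGF19 + MYC tumors than in sgTrp53 + MYC tumors, and Crebbp (0.67) and Ruvbl2 (0.51) were higher. These were 2 of the 14 genes as lower and 2 of the 15 co-activators as higher, where 12.1% of all genes were lower and 11.6% higher.

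Of 17 genes that act on MYC protein stability, 11 were higher and 2 lower in Aldafermin + MYC and FGF19 + MYC tumors than in livers, with a median of 0.62, where 39.2% of all genes were higher and 34.5% lower, and 9 were higher and 2 lower in sgTrp53 + MYC tumors, with a median of 0.98, where 36.9% and 33% were. The mitotic kinases Plk1 (6.82 and 6.42) and Aurka (6.40 and 6.33) and the ubiquitin ligase subunit Skp2 (5.72 and 5.78), which are themselves cell cycle genes, had the largest differences. Fbxw7, the substrate receptor that targets phosphorylated MYC for degradation, did not pass in either comparison (0.18 and 0.28). The ubiquitin ligase subunit Fbxo32 was lower (-3.00 and -2.09), as was the phosphatase subunit Ppp2r5a (-1.27 and -0.95). Between the tumors Fbxo32 was lower (-0.91) and Stub1, a chaperone-linked ubiquitin ligase, higher (0.49) in Aldafermin + MYC and FGF19 + MYC tumors. The levels of Fbxo32 were low and overlapped, at 0.51 to 1.69 CPM in these tumors and 0.675 to 2.49 CPM in sgTrp53 + MYC tumors. No other gene of the 17 passed between the tumors, where 12.1% of all genes were lower and 11.6% higher.

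Among the members themselves, the levels moved together only loosely from library to library. After the group means of log2 CPM were subtracted, the highest Pearson correlations over the 20 libraries were those of Myc with Mycl (0.587), of Mxi1 with Mnt (0.553) and of Myc with Max (0.538), and the lowest that of Mxd1 with Mlx (-0.46). These values share library depth and tissue composition, and are given as a description.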

How the data were processed

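RNA of individual snap-frozen tumors and livers was sequenced as stranded poly(A) libraries (TruSeq Stranded mRNA). The authors converted reads with bcl2fastq 2.20.0.422, aligned them to mm39 with HISAT2, whose version is not given in the sources used here, and deposited raw counts per RefSeq gene from htseq-count, in 2 tables. The 5 summary lines of each, which held 33.7% to 56.2% of reads, were left out of library sizes. No 2 libraries of a group had the same counts within sampling noise (lowest chi-square per degree of freedom 15.0 over 40 pairs).

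From these counts, genes that reached 1 CPM in 5 or more libraries (14333 of 50559) were fitted with edgeR 4.0.16 (R 4.3.3) in 1 quasi-likelihood model of the 4 groups with TMM scaling and no other covariate, and p-values were adjusted over all genes tested (Benjamini-Hochberg, threshold 0.05). Scaling factors were 0.615 to 0.682 in livers and 0.997 to 1.31 in tumors. Correlations used log2 CPM with a prior count of 2. Levels per length divide CPM by the exon length in GENCODE M39 (GRCm39). The fit was tested on simulated data.

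The members and the gene lists were chosen with earlier results of these data known. All members are named, with at most 3 genes of each list with the largest changes past the threshold; genes named because they did not pass, moved against their list, or passed in both comparisons were chosen after their values were seen. Alternatives were DESeq2 1.42.0, edgeR's likelihood ratio test, other scalings and filters, the compared groups alone, a replicate block, a correction for GC content and length, each tumor group alone and each library left out.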

Additional observations from a re-analysis of the deposited data

Results flagged for a closer look

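In 5 of the 40 sets of 5 libraries of 1 member and 1 group, 1 library lay far from the others by Dixon's ratio (above 0.71), where chance gives 2 of 40. Mouse Myc was 4.30 CPM in sgTrp53 + MYC replicate 3, against 2.55 to 2.94 CPM in the rest of its group. In liver replicate 4, Mycn was 2.05 CPM and Mycl 53.9 CPM, the highest of the livers for both, and this liver also had the most Myc (11.4 CPM) and the least Mnt (9.01 CPM). Mycl was 7.84 CPM in FGF19 + MYC replicate 5, which had the highest hepatocyte marker sum of all tumors, 29676 CPM. Max was 56.1 CPM in FGF19 + MYC replicate 1, below the rest of its group. This library also had the fewest reads on genes of all (18004977) and the most reads not aligned (34.0%). Whether these bear on its level of Max was not tested.

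The difference from livers was not the same in Aldafermin + MYC and FGF19 + MYC tumors as in sgTrp53 + MYC tumors for 3 members, since the livers cancel out of the tested difference between the tumors. On the log2 scale it was lower in the former by -1.02 for Mxd1, -0.69 for Mxd4 and -0.60 for Mxi1. The value of Mxd1 was -0.50 (adjusted p = 0.281, edgeR) without sgTrp53 + MYC replicate 2 and missed the threshold in 11 of 32 alternatives. The sgTrp53 + MYC libraries stood alone in their table, and the table and the group cannot be told apart.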

How the results depend on the processing

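Of the results recomputed under the alternatives, 1109 kept their direction and their side of the threshold, 24 lost the threshold, 1 gained it and 18 changed sign. Max, Mxd3, Mxd4, Mycl, Mnt and Mxi1 passed against livers under all alternatives that gave a value, and Mxi1 between the tumors in all 32. The number of members past the threshold between Aldafermin + MYC with FGF19 + MYC and sgTrp53 + MYC tumors was 1 with FGF19 + MYC tumors alone, against 3, and 2 to 4 with 1 library left out. Mxd1 passed in 21 and Mxd4 in 30 of the 32 alternatives there; Mxd1 missed it with the compared groups alone (-1.03, adjusted p = 0.0655, edgeR). With library totals in place of TMM, which took 8763 genes as higher and 2629 as lower in Aldafermin + MYC and FGF19 + MYC tumors than in livers (5616 and 4945 with TMM) and 8534 and 2423 in sgTrp53 + MYC tumors (5286 and 4733), Mlx turned to 0.46 (adjusted p = 0.00159, edgeR) and 0.34 (0.03), and Mxd1 in sgTrp53 + MYC tumors to 0.62. Without the filter Myc (-0.75, adjusted p = 0.0657, edgeR) and Mlx (-0.20, 0.287) missed the threshold in the first of these comparisons, as did Mlx in the second (-0.23, 0.288). With FGF19 + MYC tumors alone Myc (-0.77, 0.0932) and Mlx (-0.33, 0.0645) missed it in the first. With the compared groups alone Mlx missed it in the second (-0.40, adjusted p = 0.0901, edgeR). For uncalled values near 0, the sign changed in Aldafermin + MYC against FGF19 + MYC tumors for Mxd1 to -0.012 with DESeq2 and with its size factors and to -0.013 with the compared groups alone, and with 1 library left out Mxd1 ranged from -0.10 to 0.18, Mxd4 from -0.27 to 0.034, Mxi1 from -0.070 to 0.054 and Mycl from -1.56 to 0.050. Mxd1 was -0.08, -0.10, -0.05, -0.02 and -0.07 without Aldafermin + MYC replicates 3 and 4 and FGF19 + MYC replicates 1, 3 and 4, and Mxd4 was 0.034 without Aldafermin + MYC and 0.027 without FGF19 + MYC replicate 2. Against sgTrp53 + MYC tumors, Mxd3 turned to -0.10 with the GC and length correction and to -0.068 with FGF19 + MYC tumors alone, and Mnt to 0.077 with the latter; the cause was not tested. In Aldafermin + MYC against FGF19 + MYC tumors, the genes called over all were 0, but 96 with DESeq2, 59 with edgeR's likelihood ratio test, 2 with DESeq2's size factors, 6 and 29 without Aldafermin + MYC replicates 2 and 4, and 8, 3 and 3 without sgTrp53 + MYC replicates 1, 2 and 4, and none was a member. Libraries with the same number shared only the number: 6 of 30 pairs correlated above 0.1 (-0.33 to 0.33) and 1 of 20 libraries correlated best with its own number. With the replicate block, 0, 2, 9 and 8 members passed in the 4 comparisons, and Mxd1 between the tumors was -0.80 (adjusted p = 0.0589, edgeR). Depth limited Mycn, with 30 reads or fewer in each library, and Mxd3 in livers, with 11 or fewer.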
